A study of Caenorhabditis elegans with 20 samples.

Results

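The left arm of chromosome V was followed here through 6 H3K27me3 tracks, 2 tracks of tagged histone H3.3, 2 tracks of H3K36me3 and 2 tracks of the mutant histone itself. It was taken as the stretch of chromosome V from 643001 to 5897000 (genome build WBcel215), the tip left out, which is 5.25 Mb long and holds 5254 of the 100269 1 kb bins of the nuclear genome, 524 of 10024 10 kb bins and 52540 of 1002719 100 bp bins. Native ChIP-seq, in which chromatin is cut with MNase and precipitated without crosslinking, was done on isolated nuclei of young adult Caenorhabditis elegans, in which those of germ cells were enriched, and all strains were raised at 20 °C. There were 10 immunoprecipitated (IP) libraries and 10 inputs from 8 strains, with 1 library per group, and each track is the authors' pool of the replicates they kept. A p-value below therefore measures the spread between strains, and a value of 1 strain has no replicate check. Nuclei of other tissues were present in unknown proportion, so that a shift in the nuclei sampled and a shift within them cannot be told apart.

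The strains without the K27M mutation were the wild type (N2), the H3-like strain (FAS100, his-72(uge67), in which A87S, A88V, I89A and G90M give H3.3 the chaperone motif of canonical H3) and the duplication strain (CGC42, which carries mnDp10 [umnls31], a duplication of part of X on chromosome I, beside unc-3 (e151) on X). The strains with K27M were H3.3K27M (FAS58, his-72(uge40)), H3-like K27M (FAS104, his-72(uge68), with the same 4 motif substitutions) and duplication H3.3K27M (FAS93, which joins the same duplication and unc-3 allele to his-72(uge40)). The histone changes lie at the endogenous his-72 gene on chromosome III, 1 of the H3.3 genes. Tagged histone was measured in H3.3 OLLAS (FAS107, his-72(uge69)) and H3.3K27M OLLAS (FAS119, his-72(uge79)), in which an epitope tag is fused to HIS-72. H3K36me3 was measured in N2 and FAS58. The H3K27me3 antibody recognizes the di- and the trimethylated residue.

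H3K27me3 is laid down by Polycomb repressive complex 2 (PRC2) and marks silent chromatin. In the worm germ line it covers most of chromosome X and the silent stretches of the autosomes. Histone H3.3 is placed outside replication where nucleosomes turn over, whereas canonical H3 is placed during replication. The K27M substitution removes the lysine that PRC2 methylates and can hold back the enzyme. H3K36me3 marks genes transcribed in the germ line and is known to oppose PRC2. Each autosome of C. elegans has a central domain rich in essential genes, flanked by arms that recombine more often and hold more repeats and more fast-evolving gene families.

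In the wild type, the left arm of V was covered by H3K27me3 over most of its length. On the scale of the 1 kb log2 tracks (log2 of IP over input), the median over the 5014 bins that held reads in all 1 kb tracks was 0.37 (95% order-statistic interval of the median over bins 0.364 to 0.373), and 82.6% of these bins lay above 0. This was the highest median of the 15 autosomal arms and centres, although the right arm of IV was next at 0.37 and the other autosomal bins together had a median of 0.23. The values fell into a narrow high class and a low tail. In the wild type, 64.5% of the bins had a level from 0 to 0.5, 18.0% from 0.5 to 1 and 10.0% below -2. The H3-like strain had nearly the same profile, with a median of 0.34, 79.9% of bins above 0 and a Pearson r of 0.96 with the wild type across the 5014 bins (Spearman rho 0.63). Bins are not independent replicates, so such correlations are given as descriptions and without a p. Their median difference, H3-like minus wild type, was -0.0039, and 95% of the arm's bins differed by less than 0.77.

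With K27M on H3.3 the same arm had a higher IP to input ratio of H3K27me3 over most bins. With K27M on the H3-like histone the ratio was lower. The H3.3K27M median was 0.59 and exceeded the wild type by 0.36 (interval 0.337 to 0.383), with 3377 bins higher (67.4%, against 43.2% of the other autosomal bins) and 1637 lower. The H3-like K27M median was -0.52 and lay 0.70 below H3-like, a difference of -0.70 (interval -0.724 to -0.680), with 1100 bins higher (21.9%, against 35.4% of the other autosomal bins) and 3914 lower. In 2423 bins, 48.3% of those measured, the level was higher in H3.3K27M than in the wild type and lower in H3-like K27M than in H3-like. A further 1491 bins (29.7%) were lower in both mutants, 954 (19.0%) were higher in both and 146 (2.91%) were lower in H3.3K27M only. The bins that moved in opposite directions had a wild-type median of 0.40, an H3.3K27M median of 0.92 and an H3-like K27M median of -0.35. Those lower in both mutants started at a wild-type median of 0.35 and had -0.52 in H3.3K27M but -0.75 in H3-like K27M. Bins higher in both were the low bins, with a median of -1.98 for wild type and -1.36 for H3.3K27M. H3-like, which lacks K27M, already stood at -1.46 there, and H3-like K27M at -0.40. Much of the gap between wild type and H3.3K27M was thus also seen between 2 strains without the mutation.

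These directions depend on where the zero of each track lies. Across the whole genome the median log2 level was 1.12 lower in H3.3K27M than in the wild type (-1.12) and 0.95 lower in H3-like K27M than in H3-like (-0.95). After centring on these genome-wide medians, the arm's change was 1.49 in H3.3K27M, and that in H3-like K27M turned from -0.70 to 0.25. A comparison with other bins of the same track does not rest on the zero. Relative to the other autosomal bins, whose median change was -0.30, the arm gained 0.66 in H3.3K27M. In H3-like K27M the other autosomal bins changed by -0.70 as well, and the arm differed from them by 0.0032. These medians mix bins of unlike wild-type level. At wild-type levels of 0 to 0.3, 0.3 to 0.5 and above 0.5, the arm changed by -0.89, -0.78 and -0.71. Chromosomes I to IV changed by -1.09, -1.08 and -0.93 there. At or below -1 the changes were 0.80 in the arm (13.4% of its bins) and 0.92 on chromosomes I to IV (33.2%). The median also hides the bins that fell, since the mean change in H3.3K27M was 0.092 where the median was 0.36. The 922 bins above 0 in the wild type but not in H3.3K27M had a median change of -1.11. Beyond the 0.77 that bounded 95% of the bins between H3-like and wild type, 583 bins (11.6%) were higher in H3.3K27M and 804 (16.0%) lower, against 409 (8.16%) and 2254 (45.0%) in the H3-like pair. On chromosomes I to IV the shares were 11.2% higher and 47.1% lower in H3.3K27M, and 22.7% and 47.5% in the H3-like pair, so that the arm's share of higher bins in H3.3K27M and of lower bins in H3-like K27M were near those.

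**Figure D1:**
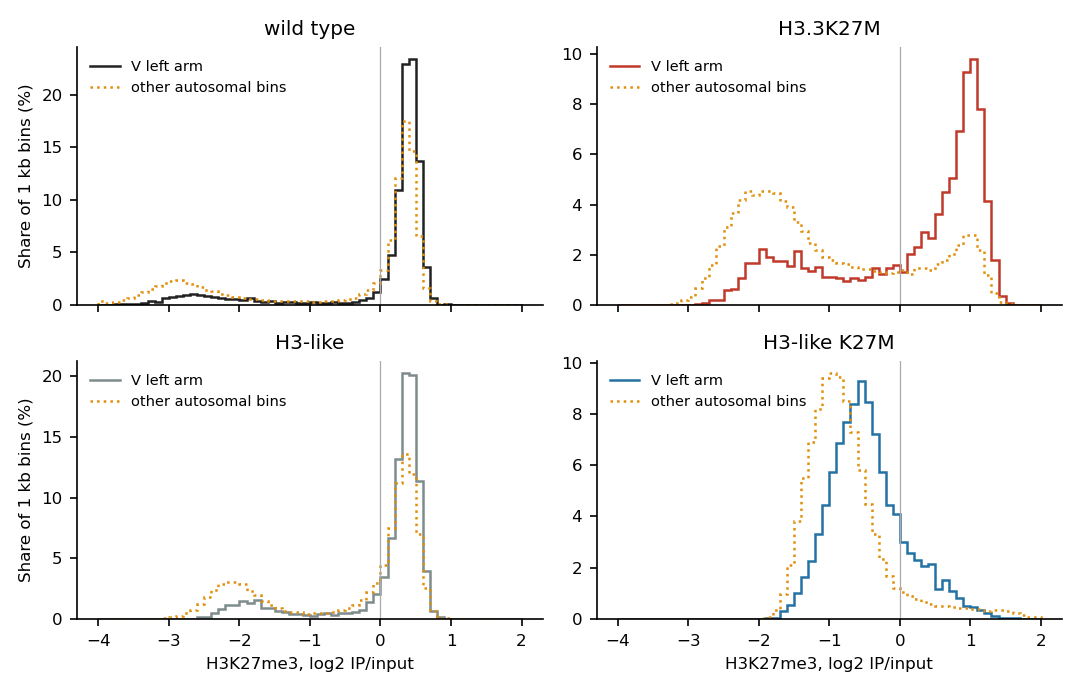
Share of 1 kb bins (y axis, percent, bars of 0.1 log2 drawn as steps) by H3K27me3 level (x axis, log2 IP over input, values beyond the axis put in the end steps) in 4 strains, for the V left arm (solid) and the other autosomal bins (dotted). In the wild type and H3-like the arm has 1 sharp peak between 0 and 0.5. In H3.3K27M its highest peak lies near 1, with a second, broad group below -1. In H3-like K27M 1 broad peak lies below 0, with a median of -0.52 in the arm and -0.87 in the other autosomal bins.

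The shape of the distribution also differed between the 2 mutants. In H3.3K27M, 24.0% of the arm's bins had a level above 1, against 0.0798% in the wild type, while 16.9% lay from -2 to -1 and 6.28% below -2. In H3-like K27M, 67.9% of the bins lay between -1 and 0, 1 bin lay below -2, and 18.5% lay above 0. Below -2 lay 10.0% of the bins for wild type and 4.15% for H3-like. The share below -2 was thus largest in the wild type and smallest in H3-like K27M. The 672 bins at or below -1 in the wild type had a median of -2.48 there and -1.95 with H3.3K27M. It was -1.82 with the H3-like histone and -1.04 with H3-like K27M. These bins were chosen for their low wild-type level, which by itself favours the lowest median there, so that rank is not further evidence.

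**Figure D2:**
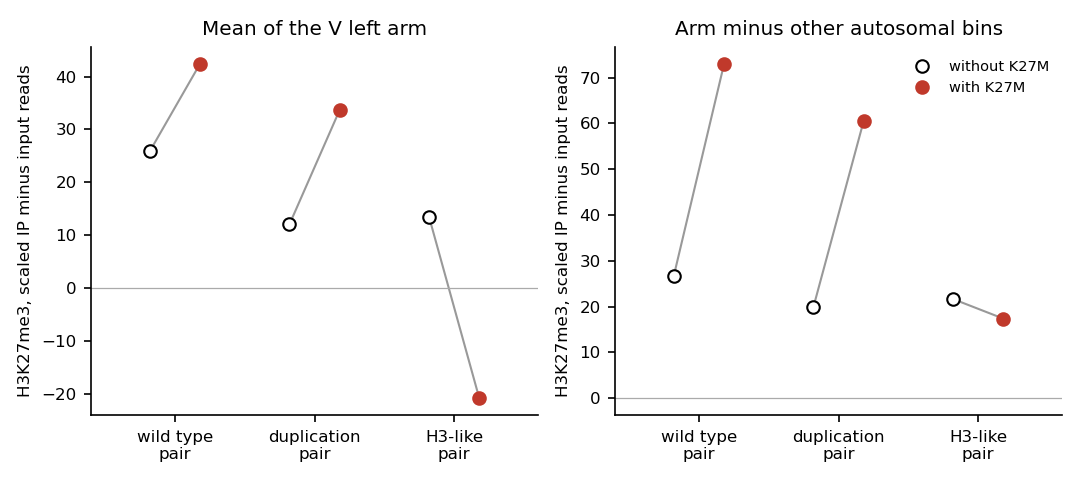
Mean input-subtracted H3K27me3 (scaled IP minus scaled input reads per 100 bp bin) of the V left arm (left) and the same minus the mean of the other autosomal bins (right), for each of 6 strains. Each point is 1 pooled track, open without K27M and filled with K27M, joined within a pair. The wild-type and duplication pairs rise in both panels, and the H3-like pair falls from 13.5 to -20.9 on the left and from 21.7 to 17.4 on the right.

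The duplication strains provided a second, separate pair with K27M on H3.3, available as 100 bp input-subtracted tracks (scaled IP reads minus scaled input reads). Wild type, H3-like and duplication had means over all bins of the arm of 25.9, 13.5 and 12.0. Of the strains with K27M, H3.3K27M had a mean of 42.4, duplication H3.3K27M one of 33.7 and H3-like K27M one of -20.9. Both strains with K27M on H3.3 lay above all 3 strains without K27M, whereas H3-like K27M lay below all 3. The mean was 18.4 ± 34.3 (SD, n = 3 strains) with K27M and 17.1 ± 7.61 (SD, n = 3 strains) without, a difference of 1.30 (two-sided exact permutation test, p = 1, where the smallest p that 3 against 3 strains allow is 0.1). Taken by pair, the arm's mean changed by 16.6 in the wild-type pair, 21.7 in the duplication pair and -34.3 in the H3-like pair.

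Relative to the other autosomal bins, the arm stood higher in every strain, and most in the 2 strains with K27M on H3.3. The arm's mean minus that of the other autosomal bins was 26.8 for wild type, 21.7 for H3-like and 20.0 for duplication. It came to 73.0 for H3.3K27M, 60.6 for duplication H3.3K27M and 17.4 for H3-like K27M. The value was 50.3 ± 29.2 (SD, n = 3) with K27M and 22.8 ± 3.55 (SD, n = 3) without, a difference of 27.5, which lay within the spread of the strains (two-sided exact permutation test, p = 0.4, adjusted p = 0.7 over 4 contrasts). The pairs changed by 46.2 (wild type), 40.6 (duplication) and -4.27 (H3-like). The other 3 contrasts set the arm against the rest of V (difference -3.68, exact p = 0.4), the right arm of V (-25.0, exact p = 0.6) and the centre of V (4.62, exact p = 0.7), each with an adjusted p of 0.7 (permutation tests). Without the H3-like K27M strain, the difference from the other autosomal bins was 44.0 and that from the right arm of V was 0.17 in place of -25.0. With medians in place of means, the differences from the rest of V and from its right arm were 2.39 and 7.16, both of the opposite sign.

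In 10 kb means of the same tracks, 235 of the arm's 524 bins (44.8%) were higher with K27M in both H3.3 pairs and lower in the H3-like pair, and 1 bin showed the opposite. A further 28.8% of the bins were lower in all 3 pairs and 69 bins (13.2%) were higher in all 3, against 57.9% and 17.4% of the other autosomal bins. The share of bins higher in both H3.3 pairs and lower in the H3-like pair was 50.1% in the centre of V, 3.17% in the right arm of V and 4.80% on chromosomes I to IV. Across 5012 1 kb bins of the arm, log2 changes from recovered reads (whole IP and input reads worked back from the steps of the input-subtracted tracks) in the wild-type and duplication pairs had a Pearson r of 0.79 (rho 0.73), against 0.42 (rho 0.49) for the wild-type and H3-like pairs. On chromosomes I to IV the same 2 correlations were 0.84 and 0.77. These pairs share no library. The difference between the pairs was not tested, since the H3-like histone was present in 1 strain with K27M and 1 without.

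Tested bin by bin with strains as replicates (limma across all 10024 10 kb bins, Benjamini-Hochberg adjusted p under 0.05), 17 of the arm's 524 bins (3.24%) were higher with K27M and 92 (17.6%) were lower. Over the whole genome 20.7% of bins were called higher and 37.9% lower, and among the other autosomal bins 4.14% and 47.9%. The arm thus had fewer bins called lower than the rest of the autosomes and about the same share called higher. The median difference with K27M was 0.45 in the arm and -29.0 in the other autosomal bins. The count of higher bins moved with the strains and with the scaling. Without H3-like K27M, 239 of the 524 bins (45.6%) were called higher, against 30.5% of all bins and 13.9% of the other autosomal bins, and 98 were called lower (background 40%). Without the whole H3-like pair, 218 were called higher (background 29.1%) and 86 lower (background 38.1%). Leaving out H3-like, duplication, H3.3K27M or duplication H3.3K27M gave 7, 8, 11 and 11 higher bins, and leaving out the wild type gave 61 lower ones. Among all 10024 bins the same settings called 1968, 1985, 2020 and 2016 higher, and 3342 lower. On other scalings the counts were 290 higher and 3 lower on centred tracks (background 52.1% and 5.23%), and 95 higher and 44 lower after quantile normalization (background 17.7% and 13.8%).

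All 17 higher and all 92 lower bins moved in 1 direction in every pair. The fit chose them on these same values, so neither this nor the separation of values in the bins below is further evidence. The largest rise was at V 4300001 to 4310000, where the values were 65.7, 39.2 and 19.5 in the wild type, H3-like and duplication strains and 199.8, 128.4 and 147.5 with K27M (difference 117.1 ± 21.1 SE, limma adjusted p = 0.00300). The 3 mutant values lie above all 3 others, and this bin also had high wild-type H3K36me3 (0.84 on the log2 scale). The next 4 rises were at V 720001 to 730000 (105.2), 5300001 to 5310000 (98.7), 3390001 to 3400000 (88.8) and 3130001 to 3140000 (87.3). In each of these 4, the H3-like pair rose less than either H3.3 pair, by 94.5, 71.4, 51.7 and 39.1. The largest fall was at V 5490001 to 5500000, where 40.2, 39.9 and 31.0 without K27M became -72.4, -50.7 and -61.6 with it (difference -98.6 ± 8.63 SE, limma adjusted p = 0.000554). It adjoins another of the 5 largest falls, at 5480001 to 5490000 (-80.9). The others were at 4590001 to 4600000 (-97.5) and in the adjoining bins 1270001 to 1280000 (-95.4) and 1280001 to 1290000 (-91.2). In the falls, the 3 values with K27M lay close together, between -85.0 and -50.7, below every value without K27M. After quantile normalization all 5 rises lost their call (4300001 to 4310000 had a difference of 41.9, limma adjusted p = 0.39), as did 3 of the 5 falls, and 2 of the falls lost it on centred tracks.

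Each bin was next placed in 1 of 4 states by whether its 1 kb log2 level exceeded 0 in each of these 2 strains, wild type and H3.3K27M. Of the arm's 5014 bins, 3220 (64.2%) were above 0 in both, 922 (18.4%) in the wild type only, 852 (17.0%) in neither and 20 (0.399%) in H3.3K27M only. Among the other autosomal bins the shares were 24.2%, 38.3%, 37.2% and 0.314%. Of the arm's 4142 bins above 0 in the wild type, 22.3% were not above 0 in H3.3K27M, against 61.3% elsewhere on the autosomes, 17.9% in the centre of V and 36.4% in its right arm. The states rest on the zero of each track, and the share marked in the wild type only was 4.57% on centred tracks, while that above the limit in both was 13.8% with a limit of 0.5. In the H3-like pair, 905 bins (18.0%) were above 0 in both and 3099 (61.8%) in H3-like only, so that 77.4% of the marked bins were no longer above 0 (85.8% elsewhere on the autosomes). The bins that H3-like K27M kept above 0 lay inside the set that H3.3K27M kept. Of the 927 bins above 0 in H3-like K27M, 912 (98.4%) were above 0 in both the wild type and H3.3K27M, against 64.2% of all the arm's bins. These 912 were 28.3% of the 3220. No such overlap is given for other regions, so it is not shown to be particular to the arm.

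The 3 main states separated in the tracks that were not used to define them. In bins above 0 in both strains the median H3-like level was 0.40, and the OLLAS medians were -0.81 in H3.3 OLLAS and -0.85 in H3.3K27M OLLAS. In bins marked in the wild type only, the H3-like median was 0.27, the H3-like K27M median was -0.77, and OLLAS lay at -0.15 and -0.12. In bins above 0 in neither, H3-like lay at -1.70, and OLLAS was 0.23 and 0.14. The duplication pair followed the same states. In recovered reads, duplication H3.3K27M exceeded the duplication strain in 75.1% of the bins above 0 in both (median log2 change 0.33) and in 2.39% of the bins marked in the wild type only (median -0.94). The H3-like pair rose in 13.3% of the former (median -0.71) and in 0.325% of the latter (median -1.04).

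The lengths of the runs differed between the states. Bins above 0 in both strains formed 159 runs with a median length of 9 kb, and the median bin of this state lay in a run of 47 kb. The longest covered V 2876001 to 3053000 (177 kb), where the wild-type and H3-like medians were both 0.44, those of H3.3K27M and H3-like K27M were 1.09 and 0.31, and that of H3.3K27M OLLAS was -1.20. It was followed by 5280001 to 5430000 (150 kb) and 3896001 to 4028000 (132 kb), where H3.3K27M reached 1.01 and 1.05 and H3-like K27M lay at -0.29 and -0.18. Runs marked in the wild type only were short, with a median of 3 kb in 222 runs, and the longest were 1266001 to 1291000 (25 kb), 1021001 to 1045000 (24 kb) and 5481001 to 5502000 (21 kb). In these 3 the wild type lay between 0.22 and 0.37 and H3.3K27M between -1.45 and -1.20. The 108 unmarked runs had a median of 4 kb, and the largest was 935001 to 1021000 (86 kb), with a wild-type median of -2.69 and an H3.3K27M median of -1.91, and it ended where the 24 kb run marked in the wild type only began. The other 2 were 4164001 to 4209000 (45 kb) and 1862001 to 1894000 (32 kb).

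**Figure D3:**
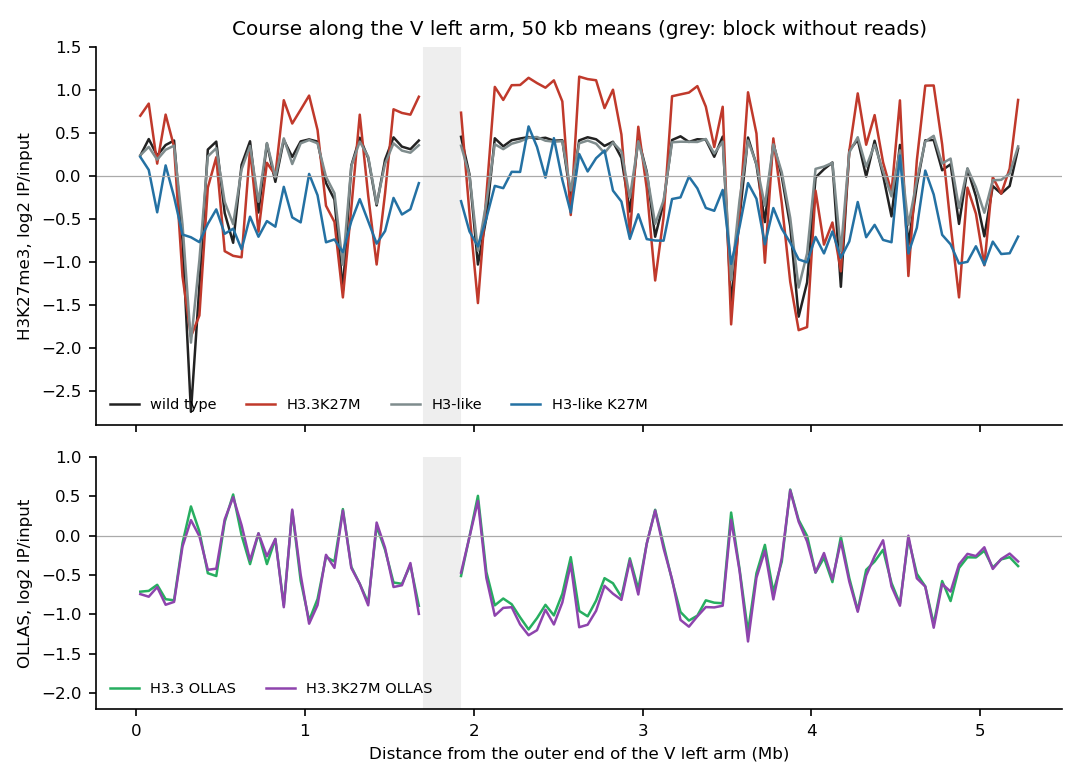
Mean log2 IP over input in 50 kb windows of measured 1 kb bins (y axes) along the V left arm (x axis, distance from its outer end in Mb), for H3K27me3 in 4 strains (top) and OLLAS in 2 strains (bottom). The grey band marks the block without reads. In the windows centred from 2.125 to 2.525 Mb, H3.3K27M lies at 0.87 to 1.14 and the wild type at 0.35 to 0.45, in those from 3.825 to 4.125 Mb H3.3K27M lies below the wild type, and the 2 OLLAS lines nearly coincide.

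A block of 215 kb, at V 2347001 to 2562000, was almost empty in every track. Of its 215 1 kb bins, 203 (94.4%) were exactly 0 in all 1 kb log2 tracks, and its recovered input reads were 0.150% to 0.233% of those in its flanks over the 12 tracks with 100 bp bins. The 5 longest empty runs of the genome, of 72, 33, 30, 30 and 24 kb, lay in it, and the next longest (17 kb) was in the centre of V. Outside it only 20 bins of the arm were empty in all tracks. Bins empty in any track (240 of 5254, 4.57%) were left out of the log2 levels, a choice made after the data were seen. With them included, the arm's change in H3.3K27M was 0.32 in place of 0.36 and that in H3-like K27M was -0.67 in place of -0.70. Apart from the block, the arm's input was close to that of the other autosomal bins, with a ratio of medians of 0.948 to 1.02. The median recovered reads per 100 bp bin of the arm were 34 to 349 in IP and 22 to 287 in input, so that the H3K36me3 tracks, at 34 to 42 IP reads, were the least deep.

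Along the arm, the medians of H3K27me3 were nearly level in the wild type and uneven in both mutants. Over 10 equal segments, numbered from the outer end, the wild-type medians ran from 0.28 to 0.42 and those of H3-like from 0.23 to 0.40. Wild-type means were not level, as they ran from 4.94 to 45.1 in input-subtracted reads over the segments. Over 50 kb windows the wild-type log2 means ran from -2.74 to 0.46. The H3.3K27M medians ran from -0.91 in segment 8 (V 4322001 to 4847000) to 1.07 in segment 5 (2747001 to 3272000). In order from the outer end they were 0.17, 0.53, 0.16, 0.59, 1.07, 0.84, 0.93, -0.91, 0.84 and 0.35. The H3-like K27M medians were highest in the same segment 5 (0.039, the one segment above 0) but lowest in the innermost segment 10 (-0.85). Segment 5 was also the highest, and segment 8 the lowest, in the wild type (0.42 and 0.28) and in H3-like (0.40 and 0.23). In segment 5, 91.6% of the bins were above 0 in the wild type and H3.3K27M both, against 29.4% in segment 8, where 37.7% were marked in the wild type only and 32.5% in neither.

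All 6 strains had their highest input-subtracted mean in segment 5, where the values were 45.1, 29.0 and 32.4 without K27M (wild type, H3-like and duplication) and 116.6, 15.2 and 97.6 with it, in the same order. In segment 8 they were 4.94, -3.01 and -9.70 without K27M and -23.7, -44.0 and -23.1 with it, so that all 3 pairs fell there. The change with K27M on H3.3 had its extremes in the same segments in the 2 separate pairs. In recovered reads it was 0.61 in segment 5 and -0.27 in segment 8 for the wild-type pair, and 0.50 and -0.29 for the duplication pair. The H3-like pair was lower in all 10 segments, from -0.28 in segment 5 to -1.05 in segment 10. Segment 8 held 23 of the 92 10 kb bins called lower and none of those called higher. These were 23 of its 52 bins, a share near the 47.9% called lower among the other autosomal bins. Segment 5, with 53 bins, held 5 of the 17 called higher and 2 called lower, where the other autosomal shares were 4.14% and 47.9%. The outer and the inner 5 segments had the same median change in H3.3K27M (0.36). In H3-like K27M the outer 5 changed by -0.60 and the inner 5 by -0.79. Segment 4, which holds the empty block, rests on 307 measured bins and the others on 518 to 525.

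Levels across the borders of the arm differed by no more than levels within it. In the windows of 100 kb just inside and just outside the outer border, H3.3K27M lay at 0.99 and 1.05, H3-like K27M at 0.14 and 0.44 and H3.3K27M OLLAS at -0.86 and -1.18. Inside and outside the inner border, H3.3K27M lay at 0.82 and 0.50, H3-like K27M at -0.80 and -0.86 and H3.3K27M OLLAS at -0.30 and -0.55. The wild type differed by less, with 0.40 and 0.41 at the outer border and 0.36 and 0.35 at the inner one. Within the arm, the adjoining 50 kb means of H3.3K27M centred at 2.525, 2.575 and 2.625 Mb from its outer end were 0.87, -0.45 and 1.16. The borders approximate those of the recombination domains and were not set from these tracks.

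Tagged H3.3 was low in the arm. The median OLLAS level was -0.56 in H3.3 OLLAS and -0.55 in H3.3K27M OLLAS, which put the arm 0.47 and 0.48 below the other autosomal bins (differences of -0.47 and -0.48). Among the 15 autosomal regions it had the lowest H3.3K27M OLLAS, with the right arm of IV next at -0.50, and the second lowest H3.3 OLLAS after that arm at -0.57. Only 23.6% of the arm's bins lay above 0 in H3.3K27M OLLAS, against 45.6% of the other autosomal bins. K27M altered the profile little, with a Pearson r of 0.95 between the 2 strains across the arm (rho 0.96) and a median difference of -0.030. Along the arm, H3.3K27M OLLAS was lowest in segment 5 (-1.09) and highest in segment 8 (-0.18), the reverse of H3.3K27M H3K27me3.

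The 10 kb bins with the most H3.3K27M OLLAS were V 1470001 to 1480000 (1.16), 1150001 to 1160000 (1.15) and 1570001 to 1580000 (0.94). The first 2 had low H3K27me3, at -1.41 and -1.15 for wild type and -2.01 and -1.92 for H3.3K27M. The third did not, as its level was 0.15 without K27M and 0.81 with H3.3K27M. The 3 bins with the least OLLAS, 2980001 to 2990000 (-1.56), 2830001 to 2840000 (-1.55) and 4010001 to 4020000 (-1.49), had wild-type H3K27me3 levels of 0.49, 0.41 and 0.49 and H3.3K27M levels of 1.23, 1.18 and 1.13. In H3-like K27M the first 2 of these lay at 0.78 and 0.52 and the last at -0.23.

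**Figure D4:**
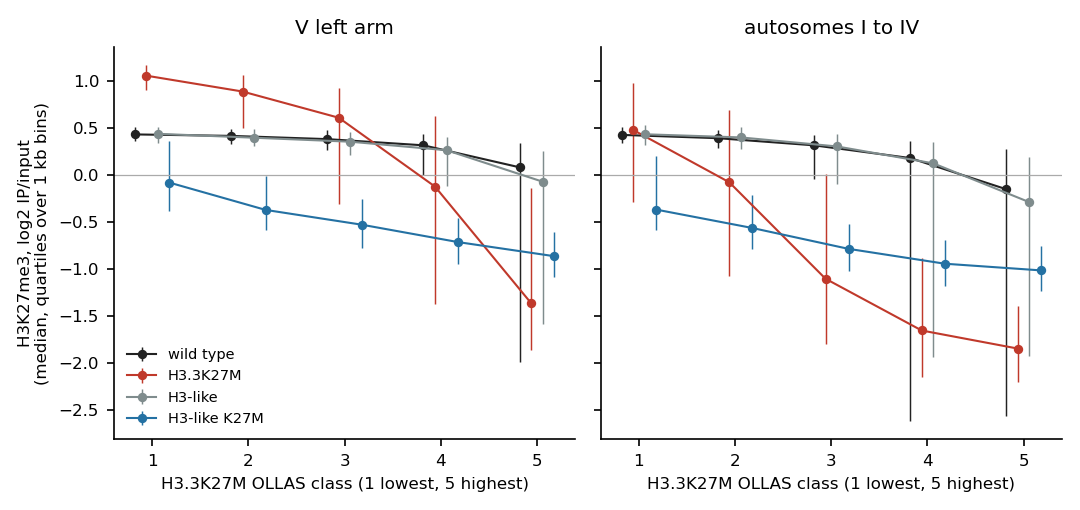
Median H3K27me3 (y axis, log2 IP over input, bars from the lower to the upper quartile over 1 kb bins) in 4 strains by class of H3.3K27M OLLAS (x axis, 5 classes holding equal numbers of the arm's bins, the same cut points used in both panels), in the V left arm and on chromosomes I to IV. In the arm H3.3K27M drops from 1.05 to -1.37 across the classes, and in every class it lies above its level on chromosomes I to IV.

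When the arm's bins were divided into 5 classes of equal size by H3.3K27M OLLAS, H3.3K27M H3K27me3 fell from class to class, with medians of 1.05, 0.89, 0.61, -0.12 and -1.37. The wild type fell from 0.43 to 0.080 and H3-like from 0.44 to -0.073. The change from the wild type was 0.62 in the lowest class and -0.24 in the highest. Duplication H3.3K27M fell likewise, from 1.03 to -0.99 in recovered reads, and its change from the duplication strain went from 0.37 to -0.058. H3-like K27M fell less steeply, from -0.082 to -0.86, and its change from H3-like was -0.50 in the lowest class, -0.83 in the fourth and -0.57 in the highest. Across the 5014 bins, the change in H3.3K27M had a Pearson r of -0.41 with H3.3K27M OLLAS (rho -0.42), and the H3.3K27M level itself an r of -0.63 (rho -0.68). With H3-like K27M minus H3-like in its place, r was 0.090, but the tagged histone is H3.3K27M, which the H3-like K27M strain does not carry. Set against the mutant histone track named for H3-like K27M, that change had an r of 0.048 (rho -0.072). The bins share libraries, depth and input, so no p is given.

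At the same level of OLLAS, the arm had more H3K27me3 in H3.3K27M than chromosomes I to IV. Bins of chromosomes I to IV in the lowest OLLAS class of the arm (1707 bins) had a wild-type median of 0.43, as in the arm, and an H3.3K27M median of 0.48, against 1.05 in the arm and 1.09 in the centre of V. In the third class the H3.3K27M medians were 0.61 in the arm and -1.10 on chromosomes I to IV, with wild-type medians of 0.38 and 0.31. When bins were matched on the wild type, the gap depended on the class. At or below -1 in the wild type, the change in H3.3K27M was 0.54 in the arm and 0.53 on chromosomes I to IV. From 0 to 0.3 it was 0.079 in the arm, 0.36 in the centre of V, -0.97 in the right arm of V and -1.59 on chromosomes I to IV. For bins with a wild-type level from 0.3 to 0.5, the change in H3.3K27M was 0.43 in the arm (2319 bins), 0.48 in the centre of V, 0.45 in the right arm of V and -1.13 on chromosomes I to IV (17671 bins). In H3-like K27M the same bins changed by -0.78, -1.11, 0.29 and -1.08. In this class the change in H3.3K27M was above 0 in all 3 regions of V, whereas that in H3-like K27M was above 0 in its right arm alone of these 4 regions. These differences are given without a test.

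**Figure D5:**
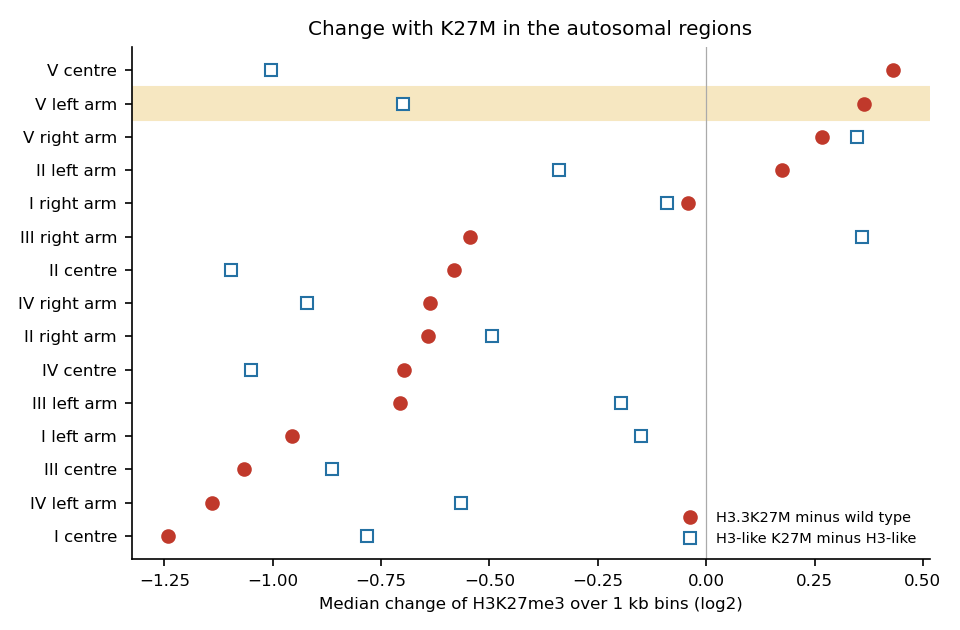
Median change of H3K27me3 over 1 kb bins (x axis, log2) in the 15 autosomal arms and centres (y axis, ordered by the change in H3.3K27M), for H3.3K27M minus wild type (filled circles) and H3-like K27M minus H3-like (open squares), 1 pooled track per strain. The V left arm is shaded, with 0.36 and -0.70, and the 3 regions of V and the left arm of II have a change above 0 in H3.3K27M.

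Set beside the other autosomal regions, the arm had the second highest H3.3K27M level, 0.59, after the centre of V at 0.66 and ahead of the left arm of II at 0.050. The left arms of I, III and IV had H3.3K27M medians of -1.87, -1.68 and -1.74. The change in H3.3K27M was also second of 15, at 0.36, between the centre of V (0.43) and the right arm of V (0.27). The change in H3-like K27M was ninth of 15. There the arm lay between the right arm of V, which had the highest autosomal H3-like K27M level (-0.12) and a change of 0.35, and the centre of V, with -0.82 and a change of -1.0. Chromosome X, for comparison, changed by 0.81 and 1.04. The spread between the regions could not be set against replicates, as each value comes from 1 pair of pooled tracks.

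H3K36me3 was close to the autosomal level in the arm. In 10 kb bins (507 in the arm with values in both strains) the wild-type median was -0.0031 against -0.0049 in the other autosomal bins, between the centre of V (-0.26) and the right arm of V (0.40). In H3.3K27M it was -0.22 against -0.12 elsewhere on the autosomes. The change in the arm was -0.17 (interval -0.207 to -0.132), and with the tracks centred on their genome-wide medians it was -0.055. H3K36me3 was highest in the 101 bins without H3K27me3 in either strain, at 0.22 for wild type and 0.42 for H3.3K27M, a median change of 0.16. It was -0.017 and -0.27 in the 339 bins with H3K27me3 (10 kb log2 level above 0) in both strains, and -0.11 and -0.48 in the 62 bins with H3K27me3 in the wild type only. Across the arm's 502 bins with values in all tracks, H3K36me3 had a weak negative relation to H3K27me3 in the wild type, with a Pearson r of -0.32 and a rho of -0.13. The same relation was more negative in the centre of V, with an r of -0.60 (rho -0.33), and on chromosomes I to IV, with -0.48 (rho -0.42). In the right arm of V it was positive, with an r of 0.20 (rho 0.37). Segment 2 had the lowest H3.3K27M value (-0.39) and segment 1 the highest wild-type value (0.11).

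The mutant histone was followed in 2 further tracks, named for H3.3K27M and H3-like K27M, whose libraries are not among the described samples. Strain and epitope rest on the track names, and the values below are the authors' own. The H3.3K27M track had a median of -0.088 in the arm, 0.078 below the other autosomal bins (difference -0.078), and the H3-like K27M track a median of 0.027, or 0.031 above them. Of the arm's bins, 40.6% lay above 0 in the first and 54.1% in the second. The H3.3K27M track followed H3.3K27M OLLAS across the arm, with a Pearson r of 0.65 (rho 0.66), and its medians rose over the OLLAS classes from -0.34 to 0.37. The H3-like K27M track stayed flat over the same classes, from 0.013 to 0.031. Along the 10 segments the H3.3K27M track ran from -0.21 (segment 5) to 0.063 (segment 8), and the H3-like K27M track only from 0.0021 to 0.057. The H3-like K27M track was the higher of the 2 in 62.5% of the arm's bins, by a median of 0.12, against 52.1% and 0.020 in the other autosomal bins. In the 3220 bins above 0 in the wild type and H3.3K27M both, the H3.3K27M track had a median of -0.21 and the H3-like K27M track one of 0.0080. In the 852 bins above 0 in neither, the medians were 0.34 and 0.062.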

How the data were processed

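The deposited tracks came from native ChIP-seq libraries, grouped by strain and antibody as labelled, 1 library per group. The authors mapped paired-end reads to WBcel215 with Novoalign (default settings, version not given in the sources used here), took the maximum number of reads in each bin, scaled all files to the same read number and pooled the replicates that passed their quality check. The deposited log2 tracks hold the IP to input ratio in bins of 1 kb or 10 kb, on a log2 scale. The 100 bp tracks hold a deposited score, scaled IP minus scaled input reads, which can be negative. With equal scaling, a loss in one part of the genome can raise values elsewhere. There were 4 tracks of mutant histone without a described library, given as values only.

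Whole IP and input reads were recovered from the 100 bp tracks (99.98% to 99.99% of bins solved). Neighbouring bins can share reads, so these are not library totals. Log2 ratios of recovered reads were taken after adding 1 scaled read to both libraries. Levels are medians over bins with a 95% order-statistic interval, which covers the spread over bins of 1 track only. Arm means of 3 strains with K27M and 3 without were compared by two-sided exact permutation tests. The 10 kb means were fitted with limma 3.58.1 in R 4.3.3 (lmFit and eBayes) over all 10024 bins with a Benjamini-Hochberg threshold of 0.05. Bins that were 0 in all tracks had their variance offset by limma. Fit and read recovery were tested on simulated data. Other steps used Python 3.11.15, numpy 2.4.6, pandas 2.3.3 and scipy 1.17.1.

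Bins named singly were the 3 longest runs of each state, the 5 largest rises and falls called in the fit with 1 direction in all pairs, and the 3 highest and 3 lowest in H3.3K27M OLLAS. The members, lists and tests were chosen with earlier results of these data known. No gene annotation or sequence of WBcel215 was used here, so no genes are named.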

Additional observations from a re-analysis of the deposited data

Results flagged for a closer look

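The arm's response to K27M went one way in both pairs with K27M on H3.3 and the other way in the pair with K27M on the H3-like histone. On the scale of scaled IP minus input reads, the mean H3K27me3 of the arm changed by 16.6 in the wild-type pair and 21.7 in the duplication pair, and by -34.3 in the H3-like pair. Measured against the other autosomal bins, the arm changed by 46.2 and 40.6 in the first 2 pairs and by -4.27 in the H3-like pair. The direction in the H3-like pair rests on the scaling, as its median log2 change in the arm went from -0.70 to 0.25 on centred tracks and differed by 0.0032 from that of the other autosomal bins. That small difference covers bins of unlike wild-type level. From 0.3 to 0.5 in the wild type, the change was -0.78 in the arm and -1.08 on chromosomes I to IV. The difference between the pairs was not tested, since the H3-like histone was present in 1 strain with K27M and 1 without. In the H3-like pair the recovered reads of the arm were 77 and 85 per 100 bp bin in IP, against 349 and 275 in the wild-type pair and 93 and 77 in the duplication pair, and the part of depth in the difference was not tested.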

How the results depend on the processing

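Of the recomputed values of the comparisons, 100 stayed within their limits, 62 moved and 1 was counted as reversed. Changes of sign in the contrasts between regions and in the correlation with OLLAS, given below, were not counted as reversed. Input-subtracted levels of OLLAS, mutant histone and H3K36me3 were counted as moved because of their unit, so the tally does not by itself measure robustness. In the single 10 kb bins 143 values kept their call, 17 lost it (8 of them after quantile normalization, which ended all 5 rises) and none reversed. Leaving out 1 strain at a time gave 7 to 239 bins called higher with K27M and 61 to 98 called lower (limma). Among all 10024 bins these ranges were 1968 to 3054 and 3342 to 4008. Leaving out 1 strain gave differences of 16.2 to 44.0 from the other autosomal bins, -6.04 to -1.22 from the rest of V, -38.1 to 0.17 from its right arm and -1.79 to 8.30 from its centre. Higher and lower bins of the arm are given next, with those among all 10024 bins in brackets. Centring gave 290 and 3 (52.1% and 5.23%), and quantile normalization 95 and 44 (17.7% and 13.8%). Log2 ratios of recovered reads gave 26 and 99 (2228 and 3892), and the same centred 306 and 3 (4812 and 573). With trend and robust, eBayes gave 30 and 103 (2068 and 3959). Without the wild-type pair they were 7 and 55 (1892 and 3047), and without the H3-like pair 218 and 86 (2916 and 3824). Without the duplication pair they were 7 and 53 (1933 and 2656). Pairing the strains by genetic background as a block gave 29 and 83 (2132 and 3626). The replicate numbers themselves pair nothing, as each group holds 1 library. Medians in place of means gave 2.39 against the rest of V and 7.16 against its right arm.

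The change in H3.3K27M was 1.49 on centred tracks, 0.092 as a mean, 0.25 from recovered reads over 10 kb, 0.32 with empty bins and 0.31 in the deposited 10 kb tracks. The change in H3-like K27M was 0.25 on centred tracks, -0.49 as a mean, -0.65 from recovered reads over 10 kb and -0.67 with empty bins. H3-like minus wild type gave 0.043, 0.052 and -0.13 under the first 3 of these settings. In input-subtracted reads, the arm differed from the other autosomal bins by -24.5 in H3.3K27M OLLAS, -26.4 in H3.3 OLLAS, -5.62 and 2.02 in the mutant histone tracks of H3.3K27M and H3-like K27M, and 3.41 and -3.06 in wild-type and H3.3K27M H3K36me3. With empty bins the first 4 of these, on the log2 scale, were -0.45, -0.43, -0.063 and 0.012. The H3K36me3 change was -0.055 centred and -14.8 in input-subtracted reads.

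The shares above 0 in both, in the wild type only and in neither were 13.8%, 4.37% and 42.2% at a limit of 0.5, and 18.0%, 61.8% and 19.7% in the H3-like pair. On centred tracks the last 2 were 4.57% and 20.3%, and with empty bins the first and last were 61.3% and 20.6%. Between the outer and inner 5 segments, the change differed by -0.082 in H3.3K27M with empty bins, and in H3-like K27M by 0.14 without the outermost and innermost 250 kb and by 0.27 with empty bins. The correlation of the H3.3K27M change with OLLAS was -0.50 over 10 kb, -0.49 in input-subtracted reads, -0.35 with H3.3 OLLAS and 0.090 for the H3-like pair. The cause was not tested where no value shows it. The choice to leave out empty bins, to add them back and to centre recovered reads was made after the data were seen. With 3 strains per side no permutation p can fall below 0.1.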
